A study of Ovis aries with 40 samples.

Results

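The antioxidant and oxidase genes *AOX1*, *SOD1*, *SOD2*, *SOD3*, *CAT*, *GPX1*, *GPX3*, *PRDX6*, *GSR* and *HMOX1*, were followed through sheep lung development as a named list, and all 10 were found among the 24478 genes counted. Bulk RNA-seq was available for 40 libraries, with 2 libraries for each of 20 conditions. These are wild-type (WT) and CFTR-/- (CF) American Romney sheep, proximal and distal lung, sampled on gestational days 65, 80, 100 and 120 and at term (day 147). The WT animals were bred and those at term were born naturally, whereas the CF animals were cloned by somatic cell nuclear transfer from 1 male fibroblast line targeted in exon 2 of *CFTR*, the gene of the epithelial chloride channel. The same animals gave the proximal and distal samples of a replicate. At 100 days both WT replicates are labelled with 1 animal, and they entered as 2 libraries. A further animal label is shared by the second WT replicate of day 65 and the second CF replicate of day 100, and their titles decided the group. Every pair of replicates differed by more than counting noise, the 2 WT distal libraries at 100 days by the least. The p-values measure only the spread between these libraries, which may be technical.

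Oxygen metabolism yields superoxide, which superoxide dismutases turn into hydrogen peroxide. *SOD1* encodes the copper and zinc enzyme of the cytosol, *SOD2* the manganese enzyme of mitochondria and *SOD3* the secreted enzyme of the extracellular matrix. Catalase (*CAT*), the glutathione peroxidases *GPX1* (intracellular) and *GPX3* (secreted) and the peroxiredoxin *PRDX6*, which also handles surfactant phospholipids, remove peroxides. Glutathione reductase (*GSR*) restores the reduced glutathione that the peroxidases use, haem oxygenase 1 (*HMOX1*) breaks down haem and is induced by oxidative stress, and aldehyde oxidase (*AOX1*) is a molybdenum enzyme that itself produces superoxide and hydrogen peroxide. At birth the lung passes from a low oxygen tension to air, and antioxidant enzymes are known to increase late in gestation in several mammals, as surfactant does.

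On the sheep genome Oar_v4.0, *AOX1* lies on chromosome 2 (201799725 to 201869143, plus strand, 35 exon blocks) and *PRDX6* on chromosome 12 (52891907 to 52905105, plus strand, 5 exon blocks). *SOD1* is annotated on chromosome 1 as 1 exon of 709 bases (121938322 to 121939030, minus strand), *SOD2* on chromosome 8 (82557550 to 82567582, minus strand) and *SOD3* on chromosome 6 (44104939 to 44190755, plus strand). *CAT* lies on chromosome 15 (63062665 to 63099586, plus strand), *GPX1* on chromosome 19 (50710776 to 50711910, plus strand) and *GPX3* on chromosome 5 (59737446 to 59745597, plus strand). *GSR* is on chromosome 26 (25468333 to 25512521, minus strand) and *HMOX1* on chromosome 3 (178448634 to 178456741, plus strand). Exons of *SOD1* overlap those of *LOC105616415* on the other strand by 89 bases, and those of *SOD3* overlap *CCDC149* on the other strand by 132 bases. Whether the counting used strand is not given in the sources used here, so reads of these overlaps cannot be assigned. The other 8 genes share no exon bases with another gene. *SOD1* was counted on its 1 annotated exon alone, and whether that covers the whole gene was not tested. All 10 passed the filter on low counts in every fit, and the lowest count of any of them was 152.

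Levels are given as CPM, the reads of a gene scaled to a fixed library total, after TMM normalization of the 40 libraries. The WT libraries before term had 24670355 to 43700012 counted reads and the CF libraries before term 85773994 to 103139483 (n = 16 each), while the term libraries had 115937437 to 126749480 in WT and 117316905 to 119451372 in CF (n = 4 each). At every age genotype cannot be told apart from cloning, and before term it cannot be told apart from depth either. How the CF term animals were delivered is not given in the sources used here, so that delivery may also differ between the genotypes at term. The WT term animals were killed after birth, and the time since birth was recorded but is not given in these sources. The paper names this time as a factor to weigh in the term lungs. Birth and the time after it cannot be told apart from age in the step from 120 days to term. From 120 days to term the WT time courses also cross from the lower to the higher depth. *CFTR* itself was measured at 9.58 to 43.8 CPM in WT and 3.65 to 34.9 CPM in CF (n = 20 each). At each of the 5 ages both CF libraries of a region were below both WT libraries. At term all 4 CF libraries (3.65 to 5.14 CPM) were below all 4 WT libraries (9.58 to 14.8 CPM). Replicates were compared by the higher-to-lower ratio of CPM, whose largest values were 3.96 in CF proximal and 3.34 in CF distal lung at term. By the median ratio over the 10 genes, 1.76, the 2 CF proximal libraries at 120 days stood furthest apart, and their ratio reached 2.91. In all other conditions the median ratio was between 1.06 and 1.57. Replicate 2 of this pair also had a secretory airway marker sum of 3507 CPM against 106 in replicate 1, an alveolar type 2 sum of 21335 against 8773 and a ciliated airway sum of 659 against 189, and its mitochondrial share of reads, 0.942% against 1.92%, was the lowest of the 40 libraries. The part of these differences in the results of CF proximal lung was not tested.

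Each of the 10 genes varied with age in WT lung by this fit, and 12 of 20 tests were called in CF lung. In the test of any difference among the 5 time points (edgeR's quasi-likelihood F test, adjusted p of 0.05 or less by Benjamini-Hochberg), WT gave 20 of 20 calls over both regions, where 40.6% of all genes were called. CF gave 4 in proximal and 8 in distal lung, where 19.6% of all genes were called. With both genotypes of a region in a shared fit, WT and CF each gave 17 of 20 calls, and DESeq2 gave 20 in WT and 17 in CF. With both WT libraries at 100 days of a region summed as 1 sample, not all 20 WT calls remained. The difference between the genotypes in these counts was not tested. The call of *HMOX1* in WT distal lung was lost in 7 of 10 fits without 1 library, as was each of the calls of *GPX3* and *PRDX6* in CF proximal lung. Term levels lay above those at 65 days in 28 of 40 tests over the 4 time courses, against 16.6% of all genes, and below in 1 test, against 15.6%. By the stricter limits of the study for a DEG (adjusted p of 0.001 or less and log2 fold change of 0.58 or more), 15 of the 40 tests were called higher, against 4.15% of all genes. *AOX1*, *SOD1*, *SOD3*, *CAT*, *GPX1* and *PRDX6* were higher at term than at 65 days in all 4 time courses. In CF proximal lung 2 of these 6 calls, *AOX1* and *SOD3*, were left without replicate 1 or without replicate 2 at 65 days, and likewise without term replicate 2. *SOD2* was higher in 3 time courses, its call in CF distal lung being lost in 7 of 10 fits without 1 library. *HMOX1* was higher in WT proximal lung, a call lost in 3 of 10 such fits, and *GPX3* and *GSR* were higher in none.

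**Figure D1:**
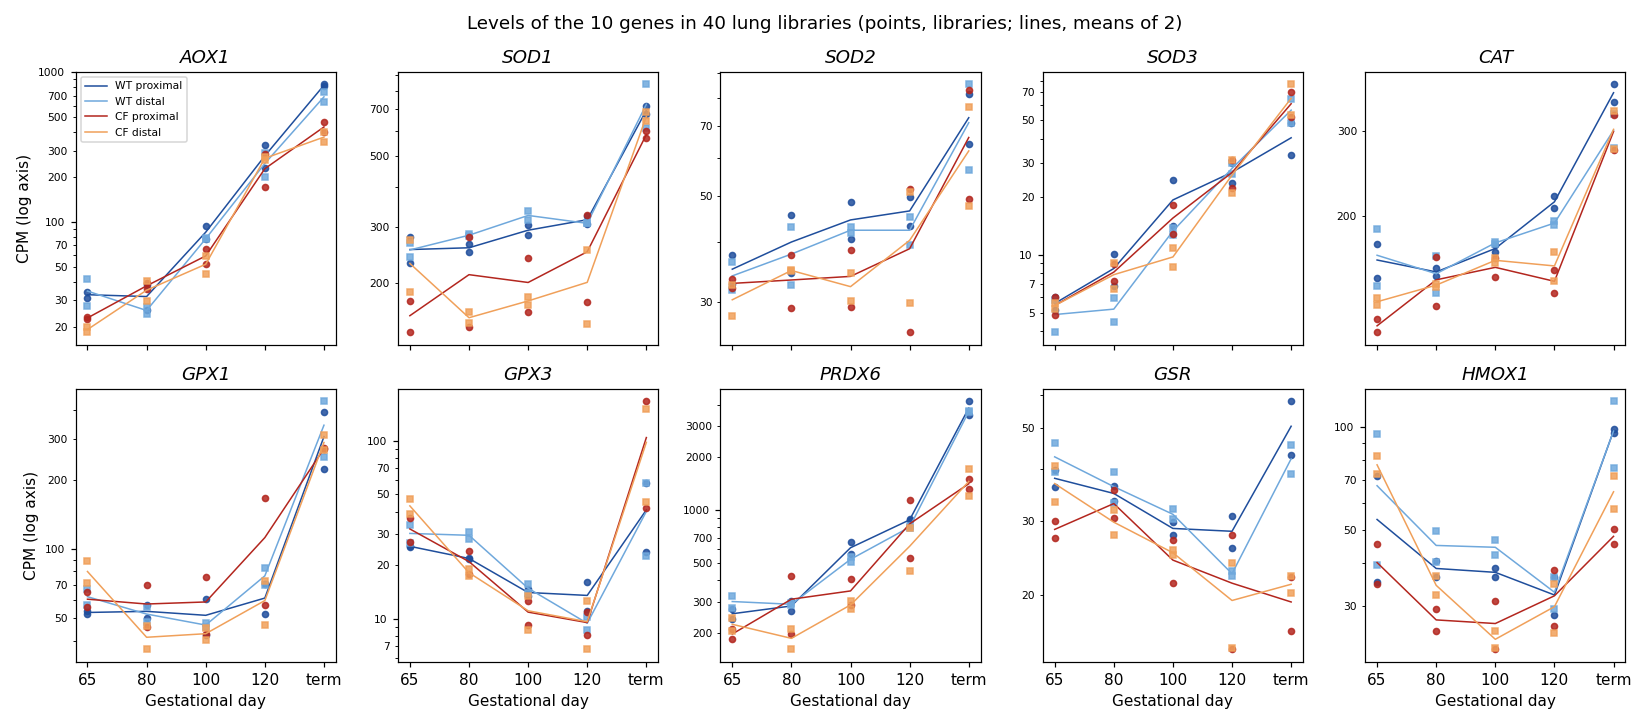
CPM of each gene (log axis) against gestational day, with 1 point per library, circles for proximal and squares for distal lung, and lines through the means of 2 libraries. The means of *AOX1*, *SOD3* and *PRDX6* climb at each age from 80 days on, *GPX3* dips to 6.71 to 15.97 CPM at 120 days, and *GSR* of WT and CF libraries separates at term.

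*AOX1* showed the largest span of the 10 genes. In WT proximal lung its level was 34.4 and 31.1 CPM at 65 days, 25.8 and 37.9 at 80 days, 93.9 and 77.4 at 100 days, 325 and 228 at 120 days, and 808 and 832 at term. WT distal lung gave 41.8 and 27.4, 27.0 and 24.4, 77.0 and 77.9, 291 and 201, and 735 and 636 CPM at the same ages. From 100 days on, both libraries of each age were above both libraries of the age before. CF proximal lung had 22.5 and 23.4 CPM at 65 days, 39.5 and 35.6 at 80 days, 66.3 and 52.7 at 100 days, 283 and 171 at 120 days, and 400 and 463 at term. CF distal lung had 20.01 and 18.4, 40.4 and 29.9, 59.8 and 44.9, 260 and 273, and 399 and 340 CPM. The log2 fold change from 65 days to term was 4.64 ± 0.24 (SE) in WT proximal, 4.27 ± 0.25 in WT distal, 4.25 ± 0.34 in CF proximal and 4.30 ± 0.26 in CF distal lung, a 19.0-fold to 24.9-fold rise. The term levels of WT were above those of CF in both regions without overlap, while the ranges of WT and CF at 120 days overlapped.

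Among the superoxide dismutases, *SOD1* was called in no step between neighbouring ages up to 120 days. WT proximal libraries had 231 to 325 CPM from 65 to 120 days, with 306 and 325 CPM at 120 days, and 716 and 677 CPM at term. WT distal libraries had 307 and 308 CPM at 120 days and 614 and 840 CPM at term. CF distal libraries had 148 and 253 CPM at 120 days and 687 and 644 CPM at term, and CF proximal libraries 174 and 327, and 569 and 598 CPM. In each of the 4 time courses both term libraries were above both libraries at 120 days.

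*SOD2* moved least of the 3 dismutases. WT proximal lung had 43.3 and 49.6 CPM at 120 days and 64.1 and 81.3 CPM at term, and WT distal lung 39.4 and 45.2, and 56.6 and 85.4 CPM. CF libraries at 120 days (25.9 to 51.5 CPM) and at term (47.5 to 82.9 CPM) overlapped. From 65 days to term its log2 fold change was 1.04 ± 0.19 in WT proximal, 1.04 ± 0.22 in WT distal and 1.06 ± 0.31 in CF distal lung, and the value in CF proximal lung was 1.02 ± 0.40 (adjusted p = 0.138, edgeR).

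*SOD3* was the least abundant at the start and climbed in steps. WT distal lung went from 3.94 and 5.82 CPM at 65 days over 13.8 and 12.7 at 100 days and 26.3 and 29.7 at 120 days to 64.2 and 48.4 CPM at term. In CF distal lung it went from 5.23 and 5.63 CPM over 8.57 and 10.9, and 20.9 and 30.9, to 76.7 and 53.0 CPM. The proximal libraries ended at 48.1 and 32.8 CPM in WT and 69.6 and 51.9 CPM in CF. Over the whole course the log2 fold change was 2.85 ± 0.33 in WT proximal, 3.50 ± 0.25 in WT distal, 3.50 ± 0.35 in CF proximal and 3.61 ± 0.31 in CF distal lung.

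Of the enzymes that remove peroxides, *PRDX6* reached the highest level of the 10 genes, 3467 to 4168 CPM in WT and 1199 to 1721 CPM in CF at term. WT proximal lung had 241 and 275 CPM at 65 days, 268 and 303 at 80 days, 660 and 565 at 100 days, 877 and 889 at 120 days, and 4168 and 3467 at term. WT distal lung had 326 and 280, 289 and 296, 509 and 543, 788 and 816, and 3604 and 3688 CPM. In CF proximal lung the values were 210 and 185, 425 and 199, 290.5 and 405, 533 and 1142, and 1322 and 1511 CPM, and in CF distal lung 205 and 244, 212 and 161, 304 and 275, 453 and 796, and 1721 and 1199 CPM. The 4 WT term libraries were all above the 4 CF term libraries, and the span from 65 days was 14.7-fold in WT proximal, 11.8-fold in WT distal, 7.22-fold in CF proximal and 6.62-fold in CF distal lung.

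*CAT* had 149.5 to 221 CPM in WT proximal lung up to 120 days and 374 and 345 CPM at term. In WT distal lung it had 196 and 192 CPM at 120 days and 325 and 277 CPM at term. CF proximal libraries gave 155 and 139, then 274 and 324 CPM, and CF distal libraries 147 and 169, then 329 and 275 CPM. The term libraries were above those at 120 days in all 4 time courses, by the smallest fold of the 4 peroxide-removing genes in WT lung.

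*GPX1* stayed between 36.6 and 88.5 CPM from 65 to 120 days in all libraries but 1, a CF proximal library at 120 days with 167 CPM. Term libraries had 222 and 393 CPM in WT proximal, 252 and 437 in WT distal, 271 and 275 in CF proximal and 312 and 268 in CF distal lung. The lowest term library thus exceeded the highest earlier one.

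*GPX3* had a low point before term. WT distal libraries had 26.5 and 33.7 CPM at 65 days, 8.67 and 10.2 at 120 days and 22.4 and 57.7 at term, and WT proximal libraries 25.3 and 25.7, 11.04 and 15.97, and 23.6 and 58.2 CPM. CF distal libraries had 47.2 and 38.9, 6.71 and 12.5, and 45.1 and 151 CPM, and CF proximal libraries 36.9 and 26.9, 8.11 and 10.9, and 42.0 and 166 CPM. At term replicate 2 exceeded replicate 1 by 2.47-fold to 3.96-fold in every genotype and region, with both regions of a replicate coming from the same animal. Term and 65 days were not told apart by the test in any time course, with adjusted p of 0.148, 0.419, 0.09 and 0.0922 (edgeR) in WT proximal, WT distal, CF proximal and CF distal lung.

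*GSR*, like *GPX3* and *HMOX1*, had lower means at 120 than at 65 days in all 4 time courses. WT distal libraries had 46.1 and 39.3 CPM at 65 days, 22.8 and 22.2 at 120 days and 38.8 and 45.6 at term. WT proximal libraries had 36.2 and 39.7, 30.9 and 25.9, and 43.1 and 57.8 CPM. CF distal libraries had 33.2 and 40.5, 14.99 and 23.9, and 22.3 and 20.2 CPM, and CF proximal libraries 30.1 and 27.3, 14.9 and 27.9, and 22.1 and 16.5 CPM. WT term libraries were above WT libraries at 120 days in both regions, while CF libraries of those ages overlapped. *GSR* fell from 65 days to term in CF distal lung, with a log2 fold change of -0.77 ± 0.24 (adjusted p = 0.0404, edgeR), a call that was lost in 8 of the 10 fits without 1 library of that time course.

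*HMOX1* was spread widely at 65 days, with 35.2 and 72.0 CPM in WT proximal, 39.4 and 95.2 in WT distal, 45.4 and 34.8 in CF proximal and 72.7 and 82.2 in CF distal lung. At 120 days all 8 libraries had 25.0 to 38.0 CPM. At term the levels were 96.1 and 98.6 in WT proximal, 75.7 and 119 in WT distal, 45.6 and 50.1 in CF proximal and 71.6 and 57.5 CPM in CF distal lung, all above those at 120 days.

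Levels of different genes were compared as CPM per kilobase of annotated exon, which for *SOD1* is a single block of 709 bases. At 65 days *SOD1* led in each genotype and region (for example 359 ± 46.7, SD, n = 2, in WT proximal lung), followed by *PRDX6* (150 ± 13.8), *GPX1* (59.5 ± 1.65) and *CAT* (48.8 ± 5.62), and *SOD3* was lowest (1.54 ± 0.162). The lower ranks were *SOD2* (27.3 ± 2.705), *HMOX1* (20.9 ± 10.1), *GPX3* (16.3 ± 0.219), *GSR* (8.15 ± 0.522) and *AOX1* (7.20 ± 0.515), of which *SOD2*, *HMOX1* and *GPX3* lay within the SD of *HMOX1*. At term in WT proximal lung *PRDX6* led with 2217 ± 288, ahead of *SOD1* (982 ± 38.8), *GPX1* (345 ± 135) and *AOX1* (180 ± 3.76). *AOX1* had thus passed *CAT* (108 ± 6.23). In CF proximal lung at term *SOD1* (823 ± 28.5) and *PRDX6* (823 ± 77.8) did not differ beyond their spread, nor did *AOX1* (94.9 ± 9.88) and *CAT* (89.7 ± 10.6).

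The step from 120 days to term carried most of the changes between neighbouring ages. In WT proximal lung 9 of the 10 genes rose, all but *SOD3*, where 13.5% of all genes rose, and in WT distal lung all 10 rose, where again 13.5% of all genes did. CF distal lung had 7 of 10 higher, all but *AOX1*, *SOD2* and *GSR*, where 11.5% of all genes were higher. In CF proximal lung 0 of 10 passed the test by edgeR, where 0.356% of all genes were called in either direction. There, 6 of the 10 had an unadjusted p under 0.05, as did 2967 of all 19690 genes. DESeq2 called 3, and 8 of 10 had both term libraries above both libraries at 120 days. For these last 2 counts the share of all genes was not computed. The median log2 fold change of the 10 genes was 1.35 in WT proximal, 1.34 in WT distal, 0.94 in CF proximal and 1.17 in CF distal lung, beside 0.06, 0.04, -0.12 and -0.06 over all genes tested.

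*GPX1* gave a log2 fold change of 2.33 ± 0.29 in WT proximal, 2.16 ± 0.25 in WT distal and 2.28 ± 0.25 in CF distal lung (adjusted p of 9.14e-04, 0.00105 and 0.00127, edgeR). *PRDX6* gave 2.11 ± 0.16 and 2.17 ± 0.14 in WT proximal and distal lung (adjusted p of 9.44e-05 and 1.25e-04, edgeR) and 1.23 ± 0.31 in CF distal lung (adjusted p = 0.0244, edgeR). *HMOX1* rose by 1.59 ± 0.29, 1.55 ± 0.38 and 1.12 ± 0.21 on the log2 scale in WT proximal, WT distal and CF distal lung, *AOX1* by 1.56 ± 0.21 and 1.46 ± 0.23 in the WT regions, and *GSR* by 0.83 ± 0.17 and 0.89 ± 0.15 there. In CF distal lung the values of *AOX1* (0.46 ± 0.22) and *GSR* (0.13 ± 0.24) did not pass the test. *SOD1*, *GPX1* and *PRDX6* were DEGs in WT proximal lung by the limits of the study, where 1.20% of all genes were DEGs with higher levels at term, and *PRDX6* was a DEG in WT distal lung, where 0.624% were.

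These counts leaned on a few libraries at 120 days. In WT distal lung 5 genes were called without replicate 1 at 120 days and 6 without replicate 2, when *SOD2*, *SOD3*, *CAT* and *HMOX1* were among the calls lost. In CF distal lung 3 were called (*SOD1*, *GPX1* and *GPX3*) without replicate 1 at 120 days. Without CF proximal replicate 1 at 120 days, 2 genes (*AOX1* and *GPX3*) were called higher at term in that region. In WT proximal lung the count was 6 without term replicate 2. With the 20 libraries of both genotypes of a region fitted together, 5 genes were called in WT proximal lung and 3 in CF proximal lung. With both WT libraries at 100 days of a region summed as 1 sample, not all 10 calls in WT distal lung remained. *AOX1*, *SOD1*, *GPX1* and *PRDX6* kept their calls in both WT regions whichever library was left out.

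**Figure D2:**
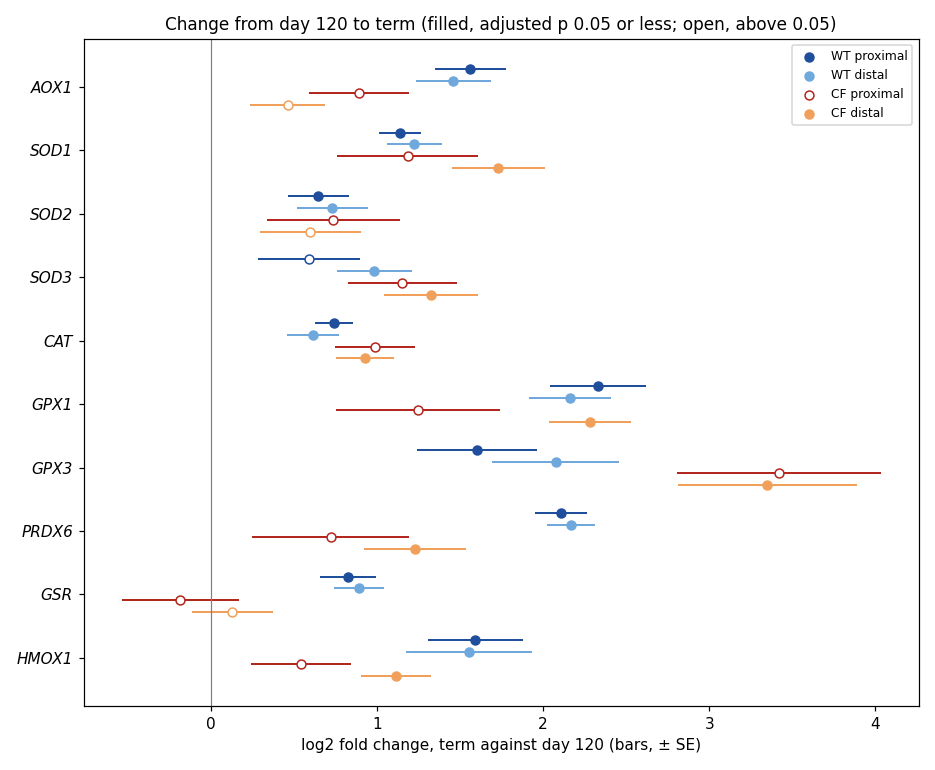
Log2 fold change from 120 days to term for each gene in the 4 time courses, with bars of ± SE, filled where the adjusted p was 0.05 or less. WT values lie between 0.59 and 2.33, whereas CF values range from -0.18 for *GSR* to 3.42 for *GPX3*, with wider bars in CF proximal lung.

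Between neighbouring ages before term, 9 of 120 tests were called, all 9 of them higher at the later age, against 0.429% of all genes. DESeq2 called 18, among them 3 in CF distal lung from 65 to 80 days, where edgeR called none (*AOX1*, higher at 80 days, and *GPX1* and *HMOX1*, lower). The 9 edgeR calls were of *AOX1*, *PRDX6* and *SOD3*. *AOX1* rose from 80 to 100 days in WT proximal (1.41 ± 0.22 on the log2 scale) and WT distal lung (1.59 ± 0.23), and again from 100 to 120 days (1.71 ± 0.22 and 1.67 ± 0.23). In CF distal lung it rose from 100 to 120 days by 2.37 ± 0.24. *PRDX6* rose from 80 to 100 days in WT proximal (1.08 ± 0.15) and WT distal lung (0.84 ± 0.14), and *SOD3* rose in WT distal lung from 80 to 100 days (1.34 ± 0.24) and from 100 to 120 days (1.08 ± 0.23). Each of the 9 calls was lost in 2 to 6 of the 10 fits without 1 library. With both WT libraries at 100 days of a region summed as 1 sample, none of the 8 WT calls remained.

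Comparing CF with WT, all edgeR calls among the 10 genes at single ages were of lower levels in CF. At term *PRDX6* was lower in CF proximal lung by a log2 fold change of -1.43 ± 0.37 (adjusted p = 0.036, edgeR) and in CF distal lung by -1.29 ± 0.25 (adjusted p = 0.00377, edgeR). *GSR* was lower by -1.39 ± 0.28 (adjusted p = 0.0119, edgeR) and -0.97 ± 0.20 (adjusted p = 0.00634, edgeR) in proximal and distal lung. *AOX1* was lower in CF distal lung (-0.86 ± 0.23, adjusted p = 0.0203, edgeR), with a value of -0.93 ± 0.27 in proximal lung that did not pass (adjusted p = 0.0553, edgeR). These are 2 of 10 genes in proximal lung, where 3.49% of all genes were lower, and 3 of 10 in distal lung, where 7.57% were.

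The other 7 genes did not differ by the test at term. *GPX3* had 1.35 ± 0.51 in proximal and 1.31 ± 0.48 in distal lung, with overlapping libraries. *SOD3* had 0.59 ± 0.33 in proximal lung, where both CF libraries were above both WT libraries, and 0.23 ± 0.27 in distal lung, where they overlapped. *SOD2* had -0.14 ± 0.32 and -0.17 ± 0.27, with overlapping libraries. *SOD1* had -0.25 ± 0.32 and -0.10 ± 0.24, *CAT* -0.26 ± 0.18 and 0.03 ± 0.17, and *GPX1* -0.17 ± 0.42 and -0.23 ± 0.25. In proximal lung both CF libraries were below both WT libraries for *SOD1* and *CAT*. The libraries overlapped for *SOD1* and *CAT* in distal lung, and for *GPX1* in both regions. *HMOX1* had -1.02 ± 0.30 in proximal lung (adjusted p = 0.0639, edgeR) and -0.57 ± 0.33 in distal lung, and all its CF term libraries were below all WT term libraries. The calls of *PRDX6* and *GSR* in distal lung stood in all 20 fits without 1 library and that of *AOX1* in 18. In proximal lung *GSR* kept its call in 18 of 20, being lost without WT or CF term replicate 2, and *PRDX6* in 7 of 20. Without both CF proximal libraries at 120 days, an alternative chosen after the data were seen, 4 genes were called lower in CF proximal lung at term, *AOX1* and *HMOX1* being added. With all libraries in the fit, a bias-adjusted form of edgeR's test also called 4 genes there. With both WT libraries at 100 days of a region summed as 1 sample, not both edgeR calls in proximal lung remained.

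**Figure D3:**
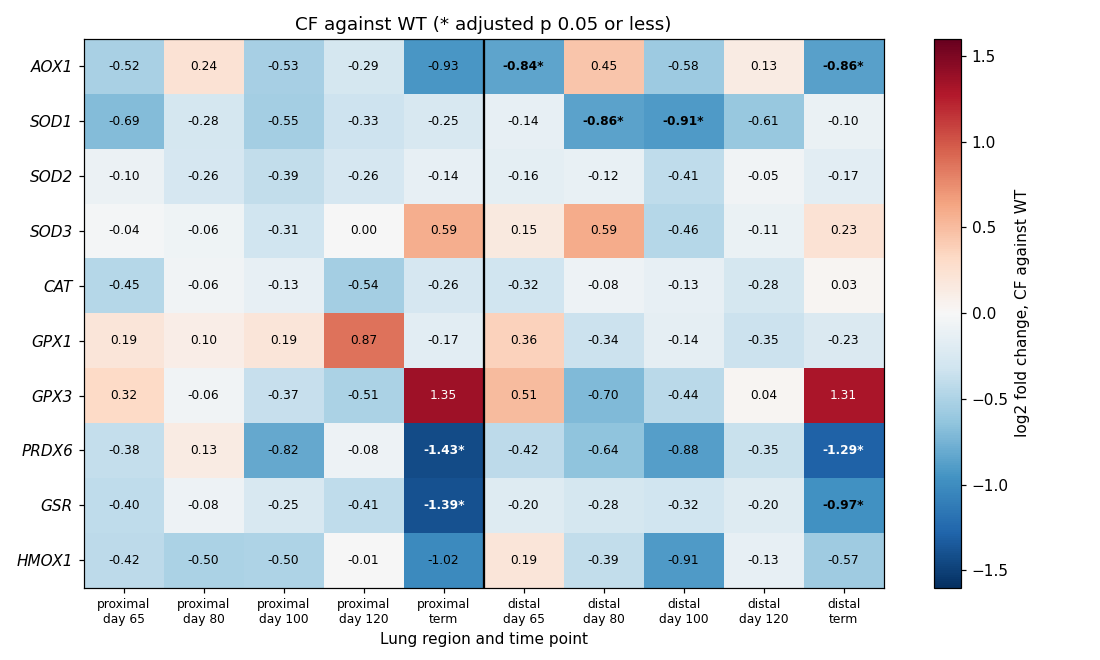
Log2 fold change of CF against WT for each gene (rows) at each region and time point (columns), blue where CF was lower and red where it was higher, with an asterisk where the adjusted p was 0.05 or less. The 8 asterisks all stand on negative values, from -0.84 to -1.43, and 5 of them are at term.

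Before term, 3 of 80 tests were called, against 0.685% of all genes lower in CF. *AOX1* was lower in CF distal lung at 65 days (-0.84 ± 0.23), and *SOD1* was lower in CF distal lung at 80 days (-0.86 ± 0.24) and 100 days (-0.91 ± 0.24). Each of these 3 calls was lost in 10 to 12 of 20 fits without 1 library, and none was made with both WT libraries at 100 days summed. As mean of the 5 ages, 9 of 20 tests were called lower in CF, against 10.5% of all genes. In proximal lung these were *GSR* (-0.51 ± 0.12), *PRDX6* (-0.52 ± 0.16), *HMOX1* (-0.49 ± 0.13), *AOX1* (-0.40 ± 0.12) and *CAT* (-0.29 ± 0.08), and in distal lung *PRDX6* (-0.72 ± 0.11), *SOD1* (-0.52 ± 0.11), *GSR* (-0.39 ± 0.09) and *AOX1* (-0.34 ± 0.10). In proximal lung the call of *PRDX6* was lost in 14 and that of *AOX1* in 8 of 20 fits without 1 library, and the other 7 calls were lost in none.

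Whether the change with time itself differed between CF and WT was tested over the step from 100 to 120 days and over the step that followed it. None of the 40 tests passed by edgeR, with 8 at an unadjusted p under 0.05 and 2 calls by DESeq2, beside 2.76% of all genes called by edgeR. From 120 days to term *PRDX6* differed by -1.35 ± 0.52 on the log2 scale in proximal lung (adjusted p = 0.22, edgeR) and by -0.94 ± 0.35 in distal lung (adjusted p = 0.0993, edgeR). *GSR* differed by -0.98 ± 0.39 (adjusted p = 0.246, edgeR) and -0.76 ± 0.29 (adjusted p = 0.106, edgeR), and *AOX1* in distal lung by -0.99 ± 0.32 (adjusted p = 0.0643, edgeR). The DESeq2 calls were *AOX1* and *PRDX6* in distal lung. Over all genes the median of this difference was -0.17 in proximal lung. Without CF proximal replicate 1 at 120 days, *GPX1*, *PRDX6* and *GSR* were called in proximal lung. In distal lung *PRDX6* and *GSR* were called without CF replicate 1 at 120 days, *SOD1* without CF replicate 2 at 120 days, and *AOX1*, *GPX3* and *PRDX6* without CF term replicate 1. In proximal lung *GPX3* was called without CF term replicate 1. Each of these fits holds 1 library in a condition, which is assumed to vary like the other groups.

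Proximal and distal lung of the same animals were not told apart for any of the 10 genes. Over all 20 pairs the log2 differences, proximal against distal, ran from -0.22 for *HMOX1* to 0.14 for *SOD3*, with SE of 0.04 to 0.10. None of 10 passed by edgeR and none by DESeq2, with 2 at an unadjusted p under 0.05 (*AOX1*, 0.13 ± 0.06, and *HMOX1*, -0.22 ± 0.08), and 0.0578% of all genes were called. At single ages 0 of 50 tests passed by edgeR and 0 by DESeq2, with 4 at an unadjusted p under 0.05, beside 0.00193% of all genes. The largest of these 4 was *HMOX1* at 65 days, with -0.62 ± 0.15 on the log2 scale.

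Markers of other cell types moved over the same step. In bulk samples fewer cells of a type and less RNA per cell cannot be told apart. From 120 days to term all 13 macrophage markers tested rose in WT proximal and in WT distal lung, and 12 of 13 in CF distal lung. The summed level of this list was 138 to 174 CPM in WT at 120 days and 1146 to 2335 at term, and in CF 109 to 185 and 375 to 609 CPM. None of its genes was at 0 at term, and up to 3 were at 0 in a library at 120 days. Beside the lower *PRDX6* and *GSR* of CF lung at term, 9 of the 13 macrophage markers were lower in CF proximal and 6 of 13 in CF distal lung at term. Alveolar type 2 markers rose in WT lung, 9 of 10 in proximal and 10 of 10 in distal lung, with 2 of 10 higher in CF distal lung. Their summed level at term was 18359 to 28698 CPM in WT and 8786 to 35573 CPM in CF, and 0 of 10 differed between CF and WT at term by edgeR. Erythroid markers, of which 11 were tested, fell at term in WT lung, 9 in proximal and 10 in distal lung. Of the 14 listed, 12 were in the count tables, and these summed to 2.27 to 5.02 CPM in WT and 7.22 to 13.9 CPM in CF at term. Alveolar type 1 markers summed to 2314 to 3341 CPM in WT and 2652 to 3035 CPM in CF at 120 days, and to 5621 to 6679 CPM in WT and 2270 to 4174 CPM in CF at term, where 2 of 8 were lower in CF proximal and 3 of 8 in CF distal lung. Smooth muscle markers summed to 412 to 638 CPM in WT and 1044 to 1393 CPM in CF at 120 days, and to 499 to 812 CPM in WT and 216 to 441 CPM in CF at term, where 3 of 6 and 4 of 6 were lower in CF. For both lists the WT and CF sums at term did not overlap. Endothelial sums at term were 1406 to 2078 CPM in WT and 2094 to 2475 CPM in CF, and fibroblast sums were 9086 to 13304 CPM at 120 days and 3544 to 6660 CPM at term in WT. The part of these cells in the levels of the 10 genes was not tested.

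The term replicates with more *GPX3* also had more of the neutrophil list. Its 7 markers summed to 57.1, 213, 52.1 and 166 CPM in WT proximal replicates 1 and 2 and WT distal replicates 1 and 2, and to 18.1, 93.8, 19.0 and 143 CPM in the same order in CF. *GPX1* was higher in replicate 2 in WT, by 1.77-fold in proximal and 1.74-fold in distal lung, whereas in CF its ratio was 1.01 and 0.859. The macrophage, secretory airway and ciliated airway sums were higher in replicate 2 in all 4 pairs, and the fibroblast sum was lower. Alveolar type 2 sums were lower in replicate 2 in CF, with 31117 and 12392 CPM in proximal and 35573 and 8786 CPM in distal lung, and higher in WT, with 22772 and 28698, and 18359 and 27062 CPM. In CF distal lung, for example, the secretory sum was 1027 and 3039 CPM, the ciliated sum 392 and 804 CPM and the fibroblast sum 8489 and 3691 CPM in replicates 1 and 2. The part of these cells in *GPX1* and *GPX3* was not tested.

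**Figure D4:**
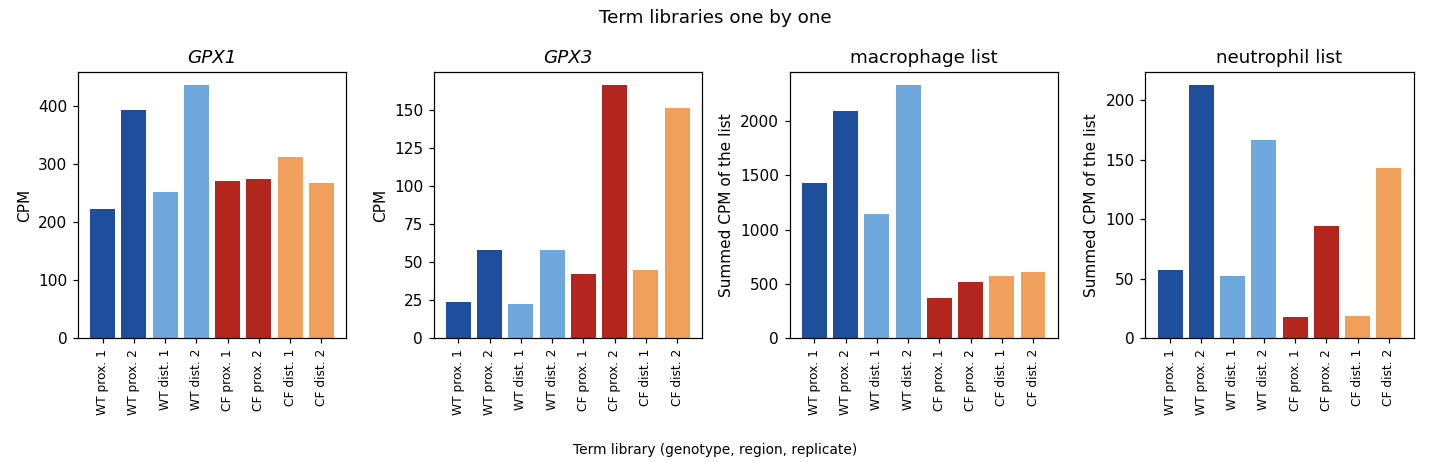
Bars give, for each of the 8 term libraries, the CPM of *GPX1* and *GPX3* and the summed CPM of the macrophage and neutrophil lists. *GPX3* is highest in replicate 2 of each genotype and region, as is the neutrophil list, and the macrophage list is 1146 CPM or more in WT and 609 CPM or less in CF.

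Of 112 related genes listed by role, 100 were in the count tables. From 120 days to term 37 of 89 tested rose and 5 fell in WT proximal lung, where 13.5% of all genes rose and 11.1% fell. In WT distal lung 42 rose and 3 fell, where 12.3% of all genes fell, and 35 genes were called higher in both WT regions. In CF distal lung 35 of 92 rose and 4 fell, where 11.5% of all genes fell, and in CF proximal lung none passed by edgeR. The change over this step differed between CF and WT for 11 of 93 genes in distal lung by edgeR, beside 9.31% of all genes. In proximal lung it differed for 1 of 93, beside 1.78% of all genes.

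Glutathione synthesis and NADPH supply had 7 of 11 genes higher in WT proximal and 6 of 11 in WT distal lung, with 1 of 11 in CF distal lung. The difference between the genotypes in the counts by role was not tested. *SLC7A11*, the cystine importer, was near 0 at 120 days in WT (0.229 ± 0.0502 CPM in proximal and 0.025 ± 0.0353 in distal lung, SD, n = 2) and had 3.42 ± 4.27 and 1.26 ± 1.32 CPM at term. The malic enzyme *ME1* rose in CF distal lung by 0.65 on the log2 scale. The thioredoxin and glutaredoxin system had 6 of 15, 7 of 15 and 5 of 15 genes higher in the same order. In WT *SRXN1* (sulfiredoxin, which repairs overoxidized peroxiredoxins) rose from 7.32 ± 0.971 to 39.6 ± 7.20 CPM in proximal and from 7.51 ± 1.29 to 37.7 ± 10.3 CPM in distal lung, and in CF distal lung *TXNIP*, an inhibitor of thioredoxin, rose by 1.78 on the log2 scale.

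The other peroxiredoxins gave 2 of 5, 2 of 5 and 3 of 5 genes higher. *PRDX5* rose by 1.41 and 1.77 on the log2 scale in WT proximal and distal lung, and *PRDX1* by 1.87 in CF distal lung, while *PRDX4*, of the endoplasmic reticulum, fell by 0.50 in WT proximal lung. Of the other glutathione peroxidases *GPX7*, also of the endoplasmic reticulum, fell by 1.35 in WT proximal and 1.01 in WT distal lung. *GPX4* rose by 0.46 and 0.74 in WT, and *GPX2*, an enzyme of epithelia, by 3.26 in CF distal lung from 0.69 ± 0.411 to 6.61 ± 5.79 CPM.

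Haem and iron handling had 4 of 7 genes higher in each WT region and 6 of 7 in CF distal lung. *BLVRB*, a biliverdin reductase, rose by 1.41, 1.27 and 2.30 on the log2 scale. Of 11 genes around NRF2, the factor that induces many antioxidant genes, 5 rose in each WT region and 3 in CF distal lung. *OSGIN1* rose in WT (1.83 and 1.63) and *MAFF* in CF distal lung (3.69, with 17.9 ± 20.2 CPM at term). *NOXO1*, an organizer of NADPH oxidase, rose by 2.82 in WT distal lung. *NCF4*, a subunit of the phagocyte NADPH oxidase, rose by 3.33 in WT proximal lung. *NCF1*, another subunit of the phagocyte oxidase, rose by 3.55 in CF distal lung, where the oxidase *NOX5* fell by 2.40. *MOCOS*, which activates the cofactor of aldehyde oxidase, rose by 1.77 and 1.63 in WT proximal and distal lung, and *MOCS2*, of cofactor synthesis, by 0.88 in CF distal lung. *PON1*, a lactone-hydrolysing paraoxonase, rose by 3.26, 4.06 and 2.92 in the 3 time courses. *SMOX*, spermine oxidase, fell by 1.32, 1.02 and 0.74.

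**Figure D5:**
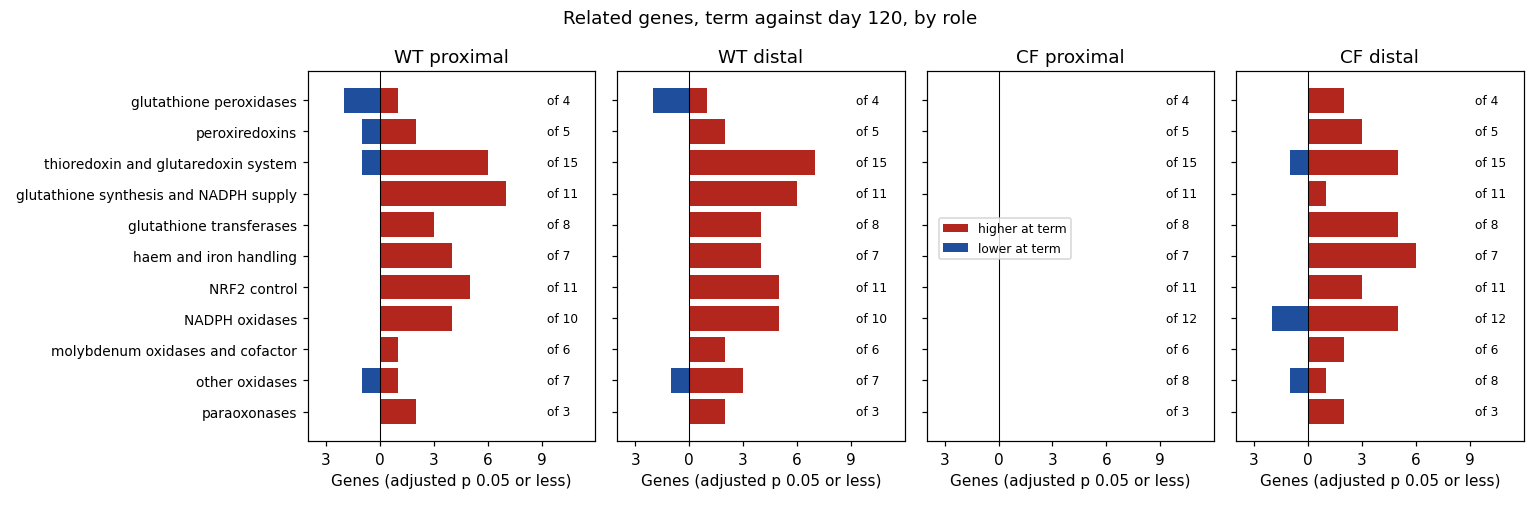
Number of related genes called higher (red, to the right) or lower (blue, to the left) at term than at 120 days, by role, with the number tested beside each bar, in the 4 time courses. Glutathione synthesis and NADPH supply has 7 and 6 of 11 genes higher in the WT regions and 1 of 11 in CF distal lung, and CF proximal lung has no call. Differences between the genotypes in these counts were not tested.

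Comparing CF with WT at term, 5 of 93 related genes were lower and 2 higher in proximal lung, where 3.49% of all genes were lower and 2.60% higher. In distal lung 14 were lower and 4 higher, where 7.57% of all genes were lower and 7.65% higher. *TXNRD1*, a thioredoxin reductase, was lower in CF proximal lung (log2 fold change of -1.07), and *GLRX5*, a mitochondrial glutaredoxin, in CF distal lung (-1.11). *ME1*, a source of NADPH for glutathione reductase, was lower in CF in both regions (log2 fold change of -1.44 and -1.38), with 162 ± 31.0 CPM in WT and 59.7 ± 13.8 CPM in CF proximal lung. *CYBB*, the catalytic subunit of the phagocyte NADPH oxidase, was lower in CF proximal lung (-2.75), and *NOXO1* in CF distal lung (-1.96), where *MOCOS* was also lower (-1.28). *GPX7* was higher in CF in proximal (2.01) and distal lung (1.64).

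Over the means of the 20 conditions, which share animals between regions and depth within groups, the pattern of *AOX1* resembled that of *SOD3* (Pearson's r of 0.958 on log2 CPM) and *PRDX6* (0.951) more than that of *GPX3* (0.107) or *GSR* (-0.254). *SOD1*, *SOD2* and *CAT* resembled each other (0.941 to 0.955). Of all genes, *AOX1* was most like *CCDC85A* (0.985) and *GIPC2* (0.982), *PRDX6* like *CD59* (0.992) and *ANXA3* (0.985), and *SOD3* like *NDRG2* (0.977) and *LOC101114075* (0.976). *SOD1* was most like *LOC101115136* (0.996) and *LOC101103215* (0.992), *SOD2* like *CROT* (0.981), and *CAT* like *STX7* (0.981) and *DAZAP2* (0.974). *GPX1* was most like *WIPI1* (0.977) and *CORO1A* (0.973), *GPX3* like *LOC101109397* (0.926) and *LYVE1* (0.911), *GSR* like *CELF6* (0.931) and *TMEM106C* (0.924), and *HMOX1* like *ACTG1* (0.925) and *VSIG4* (0.909).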

How the data were processed

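RNA from 40 lung samples was reverse transcribed with oligo dT primers and sequenced as paired reads. The authors aligned the reads to Oar_v4.0 with STAR and counted them per gene with featureCounts 1.6.3. The submitters' processing notes give STAR version 2.6, whereas the paper names another version. The deposited values are these raw counts per gene, without normalization. How mates and strand were handled and which annotation release was used is not given in the sources used here. A further deposited table of both genotypes had 20 columns, all 20 equal to a time course column. Samples were grouped by title.

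Tests were run with edgeR 4.0.16 under R 4.3.3 (TMM, filterByExpr with a minimum count of 10 and a minimum total of 15, legacy quasi-likelihood F test, Benjamini-Hochberg adjustment over all genes tested), with DESeq2 1.42.0 as an alternative. Each time course was fitted on its own, CF and WT of a region together, and regions with the pair of samples of 1 animal as a block, as the labels give the same animal for both regions of a replicate (correlation of deviations -0.0943 to 0.626). A prior count of 2 was used for log2 CPM. The fits were tested on simulated data. Precision is given by the standard errors (SE) of the fits.

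The 10 genes and the lists of related and marker genes were chosen with earlier results of these data known. Related genes were named where, within their role, they had the largest called change in either direction, and 2 genes per member were named by Pearson correlation over the 20 conditions, of which 1 is not reported here. Samples at 50 days were not analysed here. Alternatives were other scaling, filter, test, call limits and depth, the replicate block, a joint fit of both genotypes, and leaving out libraries.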

Additional observations from a re-analysis of the deposited data

Results flagged for a closer look

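From 65 to 80 days, *AOX1* differed in opposite directions in the distal lung of the 2 genotypes, with different animals at each age. In WT both libraries at 80 days were below both at 65 days, the closest being 27.0 and 27.4 CPM. In CF both libraries at 80 days were above both at 65 days. The log2 ratio of mean CPM was -0.43 in WT and 0.87 in CF. *SOD1* did the reverse, with 0.15 in WT and -0.57 in CF distal lung. These differences between genotypes were not tested, and depth and cloning cannot be told apart from genotype at these ages.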

How the results depend on the processing

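Over the 10 genes, 35 tests of neighbouring ages, 32 of any difference among ages, 29 of term against 65 days, 8 of CF against WT at an age, 9 of CF against WT as mean of the ages and 0 of the difference in change were called. By the limits of the study for a DEG these were 4, 15, 15, 0 and 1 for the first 5. DESeq2 gave 14 for CF against WT at an age and 2 for the difference in change. With both WT libraries at 100 days of a region summed, CF against WT at an age gave 4. Without both CF proximal libraries at 120 days, chosen after the data were seen, CF against WT proximal at term gave 4 instead of 2. Leaving out 1 library at a time gave 26 to 40, 30 to 35, 25 to 30, 5 to 12, 7 to 11 and 0 to 3 calls in the same order, and 0 to 0 for proximal against distal lung over all animals. It was not run for the regions at single ages. The replicate numbers were not a pairing of ages or genotypes, the correlation of deviations being -0.415 to 0.616 between ages and -0.0875 to 0.242 between genotypes. With the replicate block the counts were 33, 30, 28, 11, 9 and 1, the last being *AOX1* in distal lung from 120 days to term, and without the block for regions 0 and 0. The causes were not tested. No called value changed sign under any alternative. With all libraries thinned to the depth of the shallowest, 453 of 460 results of single genes kept their side of the threshold.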
